A study of Caenorhabditis elegans with 11 samples.

Results

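The genes described here are 8 genes of the pharyngeal muscle of Caenorhabditis elegans, measured in whole worms given plant pigments called betalains. They were chosen by gene symbol: the myosin heavy chain genes myo-1 (R06C7.10), myo-2 (T18D3.4) and myo-5 (F58G4.1), the troponin genes tni-4 (W03F8.1), tnc-2 (ZK673.7) and tnt-4 (T08B1.2), and the transcription factor genes ceh-22 (F29F11.5) and pha-4 (F38A6.1). Each symbol matched 1 transcript cluster, the unit of the array that stands for a gene, so that there were 8 clusters among 29317. Of these, 7 passed the filter on low values and were tested. The cluster of ceh-22 lay under the filter and is described only.

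All animals were wild-type N2, the standard laboratory strain, labelled as young adults of 3 days after hatching. From 16 to 18 h after hatching they received 25 uM of a betalain for 48 h at 20 °C, or nothing in the controls. The groups were indoline carboxylic acid-betacyanin (3 arrays; shortened to indoline-betacyanin), phenylalanine-betaxanthin (3 arrays), indicaxanthin (3 arrays) and control (2 arrays). A betalain is betalamic acid joined to an amine. The amine is indoline carboxylic acid in the betacyanin, phenylalanine in phenylalanine-betaxanthin and proline in indicaxanthin. Each array is labelled as an independent trial, and since the labels do not say what a trial shared, the p-values measure only the spread between these samples.

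The pharynx is the feeding organ of the worm, a tube of muscle that pumps and grinds bacteria. Its muscle builds its thick filaments mainly from the myosins MYO-1 and MYO-2, where body wall muscle uses MYO-3 and UNC-54. The troponin complex, made of subunits C, I and T, puts contraction under the control of calcium, and the pharynx has its own genes for these subunits. PHA-4, a forkhead factor of the FoxA family, specifies pharyngeal identity, and CEH-22, a homeodomain factor of the NK class, acts with it on the myo-2 gene.

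Some arrays stood apart from others of their label. The vitellogenin genes vit-1 to vit-6, which adult hermaphrodites express in the intestine to make yolk, had log2 levels averaging 2.00, 3.17 and 1.67 on the indoline-betacyanin arrays and 10.04, 10.01 and 10.07 on the phenylalanine-betaxanthin arrays. This average was 1.71 and 1.75 on indicaxanthin arrays 1 and 2 but 10.09 on array 3, and 1.71 and 1.56 on the control arrays. Results are therefore given with and without indicaxanthin array 3, which enters comparisons of other groups only through the shared spread. The 3 comparisons with control rest on the same 2 control arrays, so their values are set side by side only. Every phenylalanine-betaxanthin array had a high yolk level, and both controls and every indoline-betacyanin array a low one. Where phenylalanine-betaxanthin is compared with either of those groups, compound and yolk level cannot be told apart. The same holds where it is compared with indicaxanthin arrays 1 and 2 alone. The array holds RNA of whole animals. In it, less RNA of a gene per cell and a smaller share of pharyngeal muscle in the total RNA cannot be told apart.

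With indoline-betacyanin, genes of the contractile apparatus of the pharynx fell and pha-4 rose. Of the 6 contractile members, 4 fell against control: tni-4 by 5.12-fold, myo-1 by 3.85-fold, tnc-2 by 3.46-fold and tnt-4 by 2.34-fold. The other two, myo-2 and myo-5, were lower on every treated array but did not pass. Over all tested clusters, limma called 9.37% lower and 7.97% higher in this comparison. Without indicaxanthin array 3 all 6 contractile members passed as lower, where 18.2% of all clusters were lower and 17.1% higher. The median log2 difference of the 6 was -1.51, against 0.02 for all tested clusters.

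**Figure D1:**
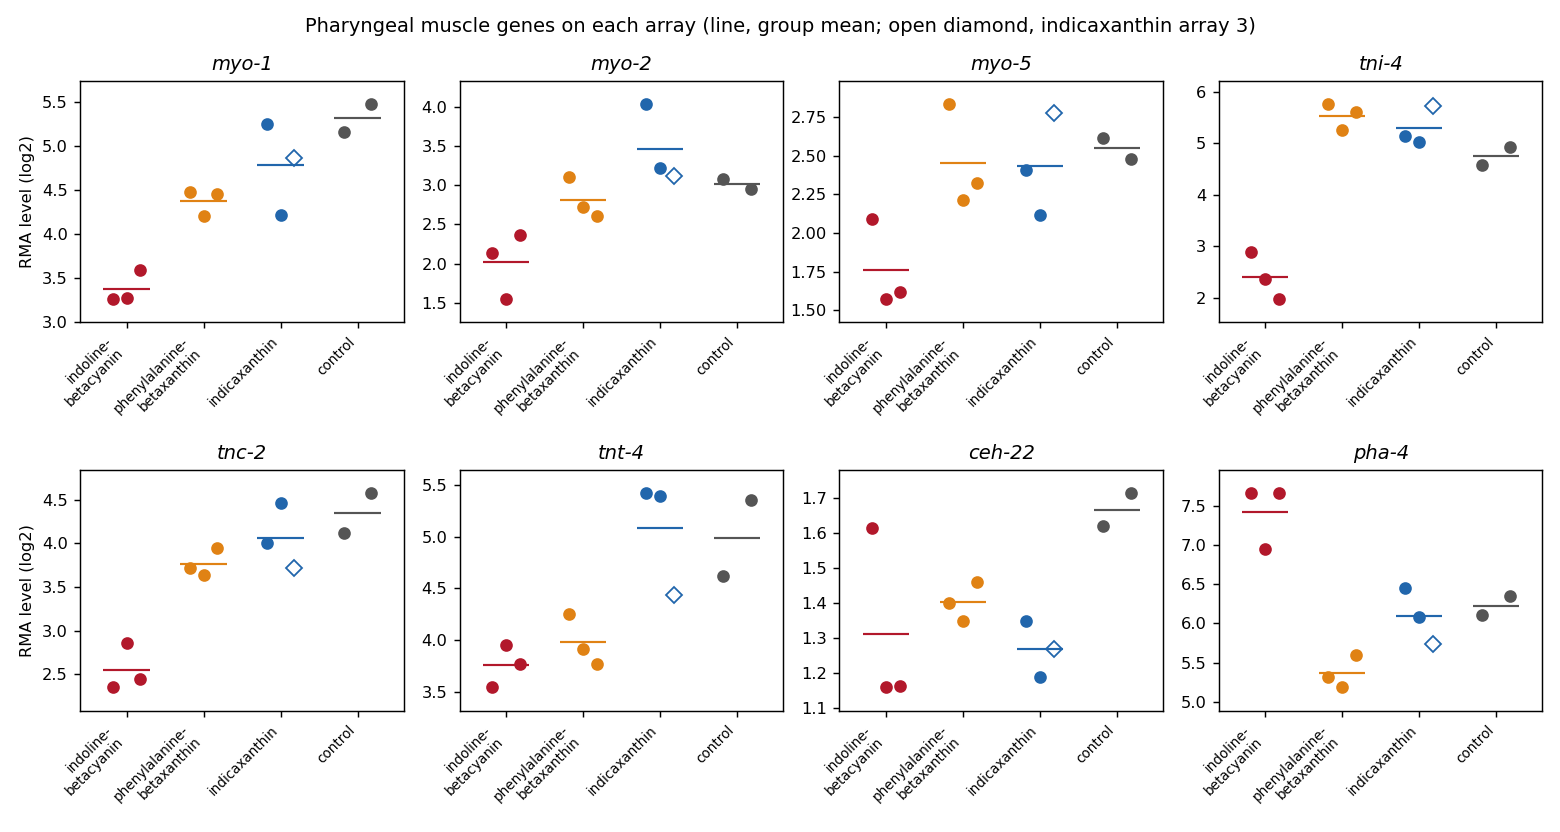
Log2 level (vertical axis, RMA value) of each of the 8 genes on each of the 11 arrays, by group, with 1 point per array and a line at the group mean; each panel has its own scale and no axis starts at 0. The open diamond is indicaxanthin array 3. On the indoline-betacyanin arrays tni-4 lies at 1.98 to 2.88, against 4.59 and 4.94 on the control arrays, and pha-4 at 6.95 to 7.67, against 6.11 and 6.35.

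The myosin heavy chain gene myo-1 had log2 levels of 3.26, 3.27 and 3.58 on the indoline-betacyanin arrays, against 5.16 and 5.47 on the control arrays. It stood at 4.47, 4.21 and 4.45 with phenylalanine-betaxanthin and at 5.25, 4.21 and 4.86 with indicaxanthin. The indoline-betacyanin arrays were thus lower than all other arrays, with no overlap. The log2 difference from control was -1.94 (SE 0.28; limma adjusted p = 0.00134; 3 of 3 arrays lower), and without indicaxanthin array 3 the adjusted p was 0.000125. In the order of group means, indoline-betacyanin was lowest (3.37 ± 0.18), followed by phenylalanine-betaxanthin (4.37 ± 0.15) and indicaxanthin (4.78 ± 0.52; SD, n = 3 each), with control highest (5.31 ± 0.22; SD, n = 2). Of the neighbours in that order, phenylalanine-betaxanthin and indicaxanthin overlapped, and so did indicaxanthin and control.

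The gene myo-2, whose promoter is the usual driver of pharyngeal reporters, lay at 2.13, 1.55 and 2.36 on the indoline-betacyanin arrays, against 3.08 and 2.95 on the control arrays. On the phenylalanine-betaxanthin arrays it was at 3.11, 2.72 and 2.61, and on the indicaxanthin arrays at 4.03, 3.22 and 3.12. All 3 indoline-betacyanin arrays were again below the other 8. The lowest of them, at 1.55, stood near the filter on low values, at a log2 level of 1.523. The log2 difference from control was -1.0 (SE 0.32; limma adjusted p = 0.0663), and the adjusted p was 0.0148 without indicaxanthin array 3. The order of means was indoline-betacyanin (2.01 ± 0.42), phenylalanine-betaxanthin (2.81 ± 0.26), control (3.01 ± 0.09) and indicaxanthin (3.46 ± 0.50), with errors here and below as SD over 3 arrays, or 2 for control. Phenylalanine-betaxanthin and control overlapped, while the 3 indicaxanthin arrays lay above both controls without passing the test.

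The third myosin gene, myo-5, was near the lower end of the scale, where the filter on low values stood at a log2 level of 1.523. It had 2.09, 1.58 and 1.62 on the indoline-betacyanin arrays, against 2.62 and 2.48 on the control arrays. The values were 2.83, 2.21 and 2.33 with phenylalanine-betaxanthin and 2.41, 2.12 and 2.78 with indicaxanthin. The highest indoline-betacyanin array lay just under the lowest indicaxanthin array, and the other groups overlapped one another. Its means were 1.76 ± 0.29 with indoline-betacyanin, 2.44 ± 0.33 with indicaxanthin, 2.46 ± 0.33 with phenylalanine-betaxanthin and 2.55 ± 0.10 on the controls. The log2 difference of indoline-betacyanin from control was -0.79 (SE 0.26; limma adjusted p = 0.0734), and the adjusted p was 0.0143 without indicaxanthin array 3.

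The troponin I gene tni-4, which encodes the inhibitory subunit, had the largest difference of the 8 genes. Its log2 levels were 2.88, 2.36 and 1.98 on the indoline-betacyanin arrays, against 4.59 and 4.94 on the control arrays. On the phenylalanine-betaxanthin arrays it stood at 5.76, 5.26 and 5.6 and on the indicaxanthin arrays at 5.14, 5.03 and 5.72. It was low with indoline-betacyanin and lay above both controls on every array of the other betalains. The log2 difference of indoline-betacyanin from control was -2.36 (SE 0.30; limma adjusted p = 0.00075). The order of means was indoline-betacyanin (2.41 ± 0.45), control (4.76 ± 0.25), indicaxanthin (5.30 ± 0.37) and phenylalanine-betaxanthin (5.54 ± 0.25), and only the last pair overlapped among neighbours.

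The troponin C gene tnc-2, for the calcium-binding subunit, had 2.35, 2.86 and 2.45 on the indoline-betacyanin arrays, against 4.12 and 4.58 on the control arrays. It stood at 3.72, 3.64 and 3.94 with phenylalanine-betaxanthin and at 4.0, 4.46 and 3.72 with indicaxanthin. The indoline-betacyanin arrays formed a separate low group. The log2 difference from control was -1.79 (SE 0.25; limma adjusted p = 0.00133). The order of means was indoline-betacyanin (2.56 ± 0.27), phenylalanine-betaxanthin (3.77 ± 0.16), indicaxanthin (4.06 ± 0.37) and control (4.35 ± 0.32). Among the other groups, phenylalanine-betaxanthin overlapped indicaxanthin and indicaxanthin overlapped control.

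The troponin T gene tnt-4, whose product anchors the complex to tropomyosin, was low in a pair of groups. It had 3.55, 3.96 and 3.77 on the indoline-betacyanin arrays and 4.26, 3.92 and 3.78 on the phenylalanine-betaxanthin arrays, against 4.62 and 5.35 on the control arrays. On the indicaxanthin arrays it stood at 5.42, 5.39 and 4.43, where the last value is that of array 3. The groups of indoline-betacyanin and phenylalanine-betaxanthin overlapped each other and lay below both controls. Their means were 3.76 ± 0.21 and 3.98 ± 0.25, beside 5.08 ± 0.56 with indicaxanthin, which overlapped the controls at 4.98 ± 0.51. The log2 difference of indoline-betacyanin from control was -1.22 (SE 0.34; limma adjusted p = 0.036) and that of phenylalanine-betaxanthin was -1.0 (SE 0.34; limma adjusted p = 0.0396). The first call was lost without control array 2 (log2 difference -0.86, limma adjusted p = 0.259) and without any 1 of the indoline-betacyanin or phenylalanine-betaxanthin arrays, at adjusted p-values of 0.0508 to 0.108. The second was lost without control array 2 (-0.64, adjusted p = 0.259), without control array 1 and without any 1 of those 6 arrays, at 0.0546 to 0.101. With arrays centred on their median, the adjusted p-values were 0.0575 and 0.0682.

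Of the regulators, pha-4 had log2 levels of 7.67, 6.95 and 7.67 on the indoline-betacyanin arrays, against 6.11 and 6.35 on the control arrays. It was at 5.32, 5.18 and 5.59 with phenylalanine-betaxanthin and at 6.45, 6.08 and 5.74 with indicaxanthin. It was highest on the 3 arrays on which myo-1, myo-2, myo-5, tni-4 and tnc-2 were lowest, and lowest with phenylalanine-betaxanthin. From the bottom, the means were 5.36 ± 0.21 with phenylalanine-betaxanthin, 6.09 ± 0.35 with indicaxanthin, 6.23 ± 0.17 on the controls and 7.43 ± 0.41 with indoline-betacyanin, and only indicaxanthin and control overlapped. The log2 difference from control was 1.2 with indoline-betacyanin (SE 0.28; limma adjusted p = 0.0165; 3 of 3 arrays higher) and -0.86 with phenylalanine-betaxanthin (SE 0.28; limma adjusted p = 0.0346). The rise with indoline-betacyanin did not pass when control array 1 was left out (log2 difference 1.08, limma adjusted p = 0.136), nor without the second control (1.32, 0.0556). Leaving out treated array 1 or 3 gave 1.08 each time, at adjusted p-values of 0.0578 and 0.0597. Besides the pharynx, pha-4 is known to be expressed in other parts of the gut and in the gonad, which whole animals also hold.

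The second regulator, ceh-22, had 1.61, 1.16 and 1.16 on the indoline-betacyanin arrays and 1.40, 1.35 and 1.46 with phenylalanine-betaxanthin, against 1.62 and 1.71 on the control arrays. With indicaxanthin it lay at 1.35, 1.19 and 1.27. The controls were the highest arrays, without overlap with phenylalanine-betaxanthin, indicaxanthin or indoline-betacyanin, but every value except the controls and 1 indoline-betacyanin array lay under the filter level. No test was made at this level.

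Across all groups, 5 of the 6 contractile members had their lowest 3 arrays in the indoline-betacyanin group, with tnt-4 as the exception, and pha-4 had its highest 3 there. Of all tested clusters, 7.1% had all indoline-betacyanin arrays below the 8 others and 13.7% had them above. Against the controls alone, all 6 contractile members were lower without overlap, where 29.2% of tested clusters were lower and 31.1% higher in that way.

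**Figure D2:**
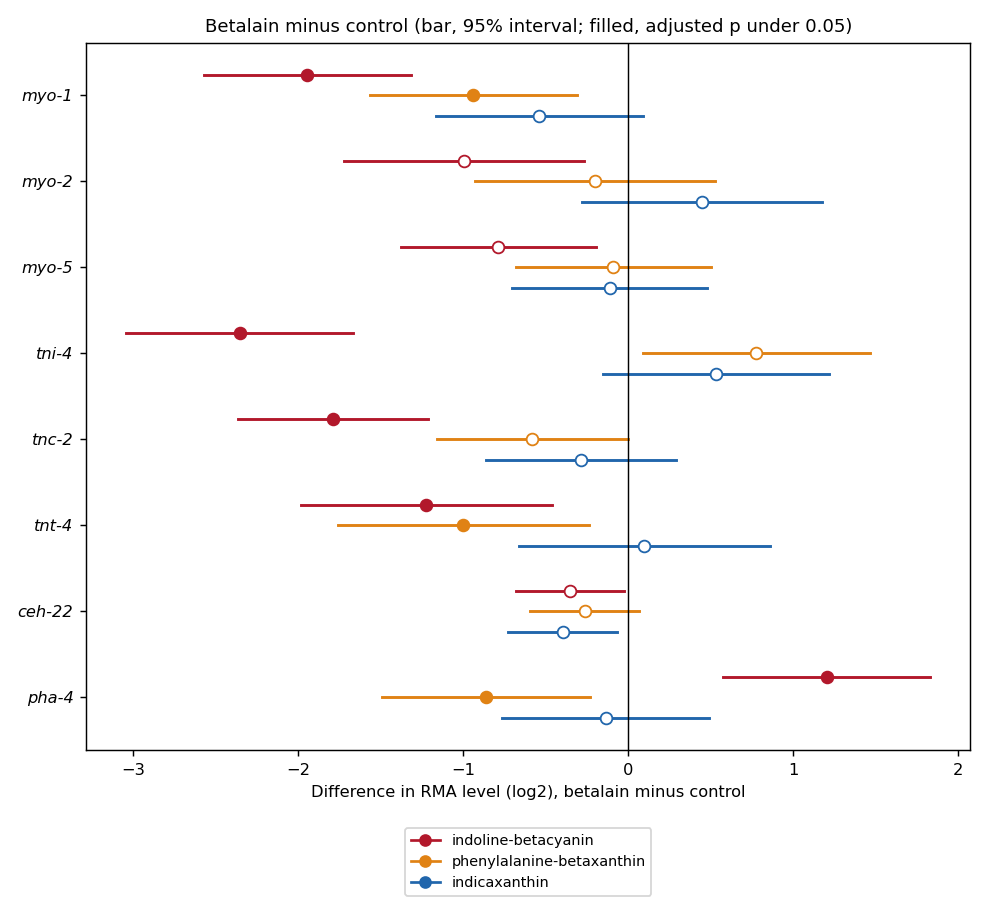
Log2 difference from control (horizontal axis) for each of the 8 genes (rows) and each betalain (colours), from limma on all 11 arrays; bars are 95% intervals, filled points have an adjusted p under 0.05, and ceh-22 was not tested. The indoline-betacyanin points of the 6 contractile genes lie at -2.36 to -0.79 and that of pha-4 at 1.2.

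With phenylalanine-betaxanthin, 3 of the 7 tested members fell against control: myo-1 (log2 difference -0.94, SE 0.28; limma adjusted p = 0.0267), tnt-4 and pha-4. Over all tested clusters 22.3% were called lower and 22.3% higher, so that 3 of 7 lower members stand beside a large background. Of the 7 tested members, 4 were lower on every treated array than on both controls and 1, tni-4, was higher, beside 40.5% and 34.9% of tested clusters. The gene tni-4 had a log2 difference of 0.78 (SE 0.30; limma adjusted p = 0.063) and tnc-2 one of -0.58 (SE 0.25; limma adjusted p = 0.0899). Without indicaxanthin array 3, tni-4 passed as higher (adjusted p = 0.0156) and tnc-2 as lower (adjusted p = 0.0316), where 28.5% of clusters were higher and 32.5% lower. For myo-2 the 95% interval of the difference ran from -0.93 to 0.53, and for myo-5 from -0.68 to 0.50. All 3 calls were lost when either control or any 1 of the phenylalanine-betaxanthin arrays was left out, at limma adjusted p-values of 0.0559 to 0.144 for myo-1, 0.0626 to 0.259 for tnt-4 and 0.0523 to 0.166 for pha-4. With arrays centred on their median they were 0.0525 for myo-1 and 0.0686 for pha-4, and tni-4 passed as higher. On these arrays markers of other tissues differed more: all 6 yolk genes and all 16 germ line genes rose, with medians of 8.40 and 4.83, and 11 of 14 neuronal genes fell, with a median of -1.46. Compound and yolk level cannot be told apart in this comparison, and the part of those tissues in the member values was not tested. A further control array with a high yolk level, described below, has approximate values from the authors' deposited tables. These were 4.62 or 4.36 for myo-1, 4.07 or 4.21 for tnt-4 and 4.94 or 5.25 for pha-4.

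With indicaxanthin, 0 of 7 members passed against control in limma, with 0 at an unadjusted p under 0.05, where 5.88% of tested clusters were called lower and 0.315% higher. Without array 3 the count was also 0, with 7.45% lower and 3.04% higher. Of the 7 tested members, tni-4 and myo-2 lay above both controls on every indicaxanthin array and 0 lay below, beside 16.1% and 14.9% of tested clusters. The difference was -0.54 for myo-1 (95% interval from -1.17 to 0.09), 0.53 for tni-4 (from -0.15 to 1.22) and 0.45 for myo-2 (from -0.28 to 1.17). Without array 3 the differences were -0.58 for myo-1, 0.32 for tni-4, 0.62 for myo-2 and 0.42 for tnt-4. The intervals over all arrays do not reach the differences of myo-1 (-1.94) and tni-4 (-2.36) seen with indoline-betacyanin. For pha-4 the interval ran from -0.76 to 0.49.

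The betalains were also compared with each other, at the same dose and time, in 3 pairs whose p-values were adjusted over all 20291 clusters of each pair. Indoline-betacyanin against indicaxanthin had 5 members lower and 1 higher. The lower ones were tni-4 (log2 difference -2.89, SE 0.27; limma adjusted p = 0.00027), myo-2 (-1.44, SE 0.29), tnc-2 (-1.50, SE 0.23), myo-1 (-1.41, SE 0.25) and tnt-4 (-1.32, SE 0.30), and the higher was pha-4 (1.34, SE 0.25; limma adjusted p = 0.00766). Over all clusters 4.42% were lower and 9.78% higher. Arrays did not overlap for any of the 7, with 6 lower and 1 higher, beside 13.6% and 17.4% of clusters. Without indicaxanthin array 3 the counts were the same, beside 13.5% lower and 14.4% higher clusters, and tni-4 stood at -2.68. Fitted on these 2 groups alone, tni-4 and tnc-2 passed, and the adjusted p was 0.0648 for myo-1, 0.0844 for myo-2, 0.0876 for tnt-4 and 0.07 for pha-4. In this pair myo-5 did not pass (-0.67, 95% interval from -1.20 to -0.15; limma adjusted p = 0.0936).

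Indoline-betacyanin against phenylalanine-betaxanthin had the widest gap in tni-4, at -3.13 (SE 0.27; limma adjusted p = 0.000133), which is 8.77-fold lower in the betacyanin group. The genes tnc-2 (-1.21, SE 0.23), myo-1 (-1.0, SE 0.25), myo-2 (-0.80, SE 0.29) and myo-5 (-0.70, SE 0.23) were also lower and pha-4 was 4.18-fold higher (2.06, SE 0.25; limma adjusted p = 0.000578). In all, 5 of 7 members were lower and 1 higher, beside 23.8% and 23.5% of all tested clusters. The same counts came without indicaxanthin array 3, beside 29.3% and 29.7%, and for arrays that did not overlap, beside 32.5% and 34.3%. Markers of other tissues differed in the same pair: all 6 yolk genes and all 16 germ line genes were lower, with medians of -7.84 and -5.20, and all 14 neuronal genes were higher, with a median of 2.31. Their part in the member values was not tested, and compound and yolk level cannot be told apart in this pair. For tnt-4 the difference was -0.22, with a 95% interval from -0.91 to 0.46. The call of myo-2 (adjusted p = 0.0473) held in 7 of 19 alternative settings and that of myo-5 (adjusted p = 0.0358) in 13.

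**Figure D3:**
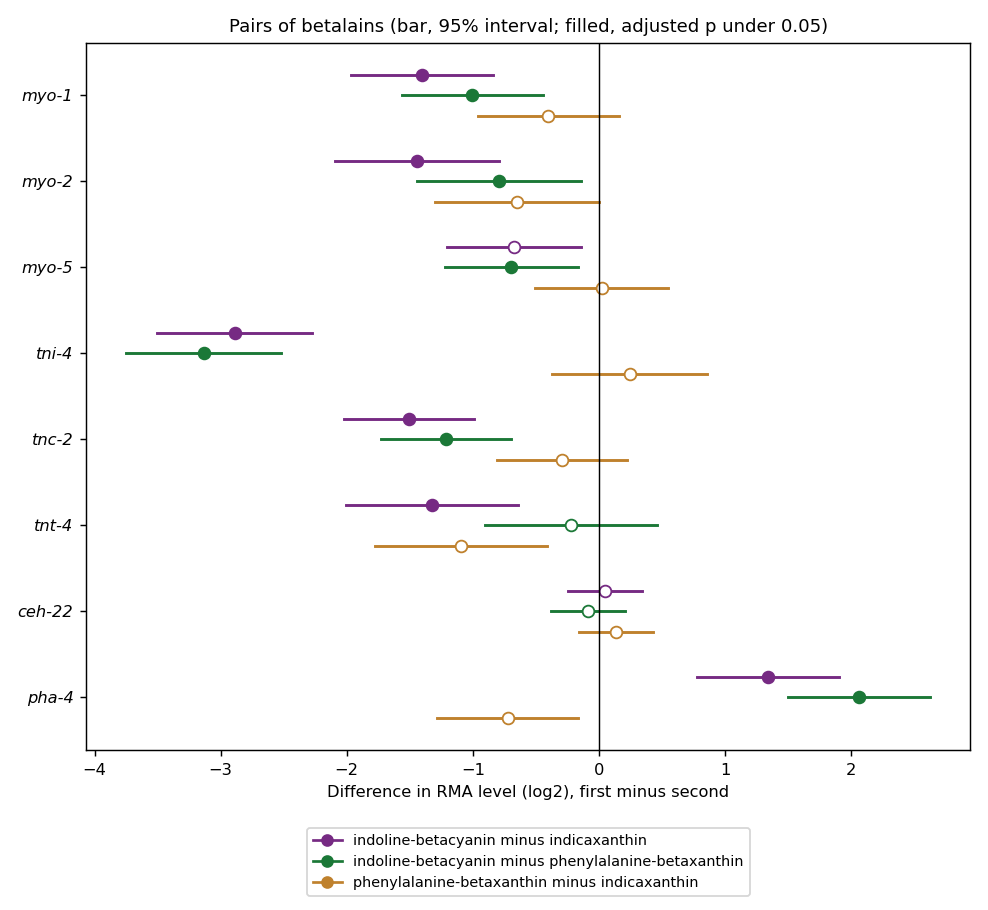
Log2 difference between betalains (horizontal axis, first minus second) for the 8 genes (rows) in 3 pairs (colours), from limma on all 11 arrays; bars are 95% intervals and filled points have an adjusted p under 0.05. The tni-4 points of both pairs with indoline-betacyanin lie at -2.89 and -3.13, and that of phenylalanine-betaxanthin minus indicaxanthin at 0.25.

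The pair of betaxanthins, phenylalanine-betaxanthin against indicaxanthin, had 0 of 7 members past the threshold. Of the 7, 2 had an unadjusted p under 0.05. The background in limma was 0% in each direction, with 6636 of 20291 clusters at an unadjusted p under 0.05. Without indicaxanthin array 3, tnt-4 (-1.42, SE 0.22; limma adjusted p = 0.000176), pha-4 (-0.90, SE 0.23; limma adjusted p = 0.00565) and myo-2 (-0.82, SE 0.27; limma adjusted p = 0.0249) were lower, where 28.5% of clusters were lower and 26.6% higher. On every phenylalanine-betaxanthin array these 3 genes lay below all indicaxanthin arrays, and 0 of the 7 lay above, beside 8.64% and 5.13% of clusters. The fit without array 3 set high-yolk arrays against low-yolk ones, so compound and yolk level cannot be told apart in it. On indicaxanthin array 3 tnt-4 stood at 4.43, against 5.42 and 5.39 on arrays 1 and 2. There pha-4 had 5.74, against 6.45 and 6.08, and myo-2 had 3.12, against 4.03 and 3.22. For tni-4 the difference was 0.25 with a 95% interval from -0.37 to 0.86.

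Body wall muscle has its own myosin and troponin genes. None of the 9 measured passed the test with indoline-betacyanin over all 11 arrays, with 1 at an unadjusted p under 0.05. Of all tested clusters, 9.37% were called lower and 7.97% higher in that comparison. The myosin genes unc-54 and myo-3 had log2 differences from control of 0.19 (95% interval from -0.24 to 0.62) and 0.87 (from 0.20 to 1.55; limma adjusted p = 0.0808). The troponin I genes unc-27, tni-1 and tni-3 had -0.12, -0.53 and -0.26, beside -2.36 for tni-4. The troponin C gene pat-10 had -0.34, beside -1.79 for tnc-2, and the troponin T genes mup-2, tnt-2 and tnt-3 had -0.42, -0.49 and 0.12, beside -1.22 for tnt-4. The contrast between the gene sets was not itself tested. Of the 17 body wall genes listed, some of which the pharynx also uses, 2 rose and 0 fell: unc-89, the giant sarcomere protein obscurin (1.5, SE 0.21; limma adjusted p = 0.00109), and unc-22, the giant kinase twitchin (1.46, SE 0.25; limma adjusted p = 0.00377). Their median difference was -0.12. On every treated array 9 of the 17 lay below both controls and 4 lay above, beside 29.2% and 31.1% of tested clusters. Those below included the troponin genes unc-27, tni-1, tni-3, pat-10, mup-2 and tnt-2, and those above included myo-3. Without indicaxanthin array 3, 3 rose, myo-3 being the added one, and 4 fell: tni-1 (-0.53), tnt-2 (-0.49), mlc-1 (-0.47) and mup-2 (-0.42). In that fit 17.1% of all tested clusters were higher and 18.2% lower, near the shares of this list. Of the 9 myosin and troponin genes, myo-3 thus passed as higher and tni-1, tnt-2 and mup-2 as lower. The fit on all 11 arrays held indicaxanthin array 3 in its shared spread. There tni-1 stood at 4.98, against 7.40 and 7.67 on arrays 1 and 2. The absence of calls among the 9 therefore does not show that these genes were unchanged.

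With phenylalanine-betaxanthin 7 of these 17 genes fell and 0 rose, at a median of -0.61, where 22.3% of all tested clusters fell and 22.3% rose. The counts were 13 and 1 when indicaxanthin array 3 was left out, beside 32.5% and 28.5%. Among the 7 were mlc-1, a regulatory myosin light chain (-1.25, SE 0.33; limma adjusted p = 0.0209), mlc-3, an essential light chain (-0.88, SE 0.25), the tropomyosin gene lev-11 (-0.91, SE 0.27) and tnt-3 (-1.27, SE 0.38). The troponin I gene tni-1 fell by 2.05 on the log2 scale (limma adjusted p = 0.0333), while tni-4 had 0.78. With indicaxanthin 0 of 17 passed in limma, with 1 at an unadjusted p under 0.05, and without array 3, 1 was higher, tni-3 (0.74; limma adjusted p = 0.0217).

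**Figure D4:**
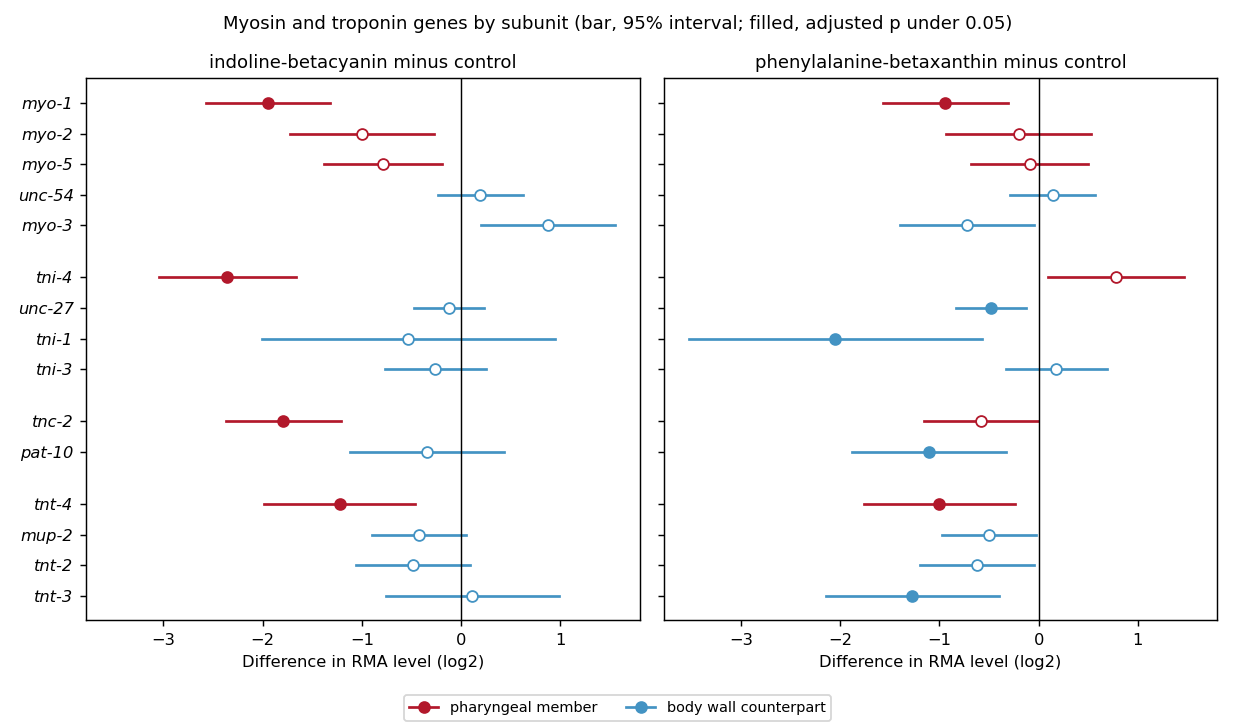
Log2 difference from control (horizontal axis) of myosin heavy chain and troponin genes, grouped by subunit, for indoline-betacyanin (left) and phenylalanine-betaxanthin (right), from limma on all 11 arrays; bars are 95% intervals and filled points have an adjusted p under 0.05. On the left, tni-4 lies at -2.36 and its body wall counterparts at -0.53 to -0.12.

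Channel genes of the pharynx were among those that rose with indoline-betacyanin. Of 11 genes for excitation and pumping, 10 had a cluster and 7 were tested. With indoline-betacyanin 2 of these 7 rose and 0 fell against control, or 3 and 0 without indicaxanthin array 3, where 7.97% and 17.1% of all tested clusters rose. These were cca-1, a T-type calcium channel (1.04, SE 0.28; limma adjusted p = 0.0346), and exp-2, the potassium channel that ends the pharyngeal action potential (1.01, SE 0.29; limma adjusted p = 0.042). The L-type calcium channel gene egl-19 (0.83, SE 0.35; limma adjusted p = 0.159) and glc-2, a glutamate-gated chloride channel subunit (0.40, SE 0.18), did not pass. The median of the 7 was 0.40. The mean level of 14 neuronal genes was also high on these arrays, at 7.07, 6.96 and 6.95, against 6.14 and 6.28 on the control arrays. Of these, 1 of 14 passed as higher, or 10 without indicaxanthin array 3, and their part in the channel values was not tested. Against phenylalanine-betaxanthin 5 of 7 were higher, where 23.5% of all clusters were, led by exp-2 (1.78), egl-19 (1.92), eat-20 (1.40) and cca-1 (1.25), and against indicaxanthin also 5 of 7, where 9.78% were. With phenylalanine-betaxanthin against control 2 fell, or 3 without indicaxanthin array 3, beside the 22.3% and 32.5% of all clusters: egl-19 (-1.09, SE 0.35; limma adjusted p = 0.0339) and eat-20, a gene needed for normal feeding (-1.07, SE 0.29; limma adjusted p = 0.0224).

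Of 9 other regulators of pharyngeal development, 6 were tested. With indoline-betacyanin against control 0 passed in limma, with 1 at an unadjusted p under 0.05, and the smallest p was that of the homeobox gene ceh-24 (-0.45, SE 0.16; adjusted p = 0.0851). When indicaxanthin array 3 was left out, 2 fell, ceh-24 and peb-1 (-0.62; limma adjusted p = 0.0231), where 18.2% of all clusters did. With phenylalanine-betaxanthin 3 of 6 fell, or 4 without indicaxanthin array 3, beside 22.3% and 32.5% of all clusters. These 3 were the T-box gene tbx-2 (-2.46, SE 0.80; limma adjusted p = 0.0354), peb-1, a DNA-binding protein of the pharynx (-2.22, SE 0.56; limma adjusted p = 0.0196), and pha-1 (-0.72, SE 0.18; limma adjusted p = 0.0193). On indicaxanthin array 3 tbx-2 stood at 3.99, against 7.19 and 7.08 on arrays 1 and 2. There peb-1 had 3.10, against 5.37 and 5.07, and pha-1 had 2.03, against 2.31 and 2.03. By the authors' deposited tables, the further control array described below had 4.65 or 4.54 for tbx-2. It had 2.98 or 4.52 for peb-1 and 2.04 or 1.67 for pha-1. Compound and yolk level cannot be told apart in these falls. Of 8 gland and marginal cell genes 5 were tested. With indoline-betacyanin 1 of these 5 fell, where 9.37% of all tested clusters did: phat-6, a mucin-like gland gene (-1.37, SE 0.21; limma adjusted p = 0.00188). The gland gene phat-4 had -1.02 (SE 0.43; limma adjusted p = 0.156).

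Markers of other tissues moved with the indoline-betacyanin comparison in part. Over all tested clusters 9.37% fell and 7.97% rose against control, or 18.2% and 17.1% without indicaxanthin array 3. Of 9 intestinal genes 5 fell and 0 rose, with a median of -0.77, and their mean level was 6.78, 6.79 and 6.79 on the indoline-betacyanin arrays, against 7.62 and 7.80 on the control arrays. Of 14 moulting and epidermal genes 3 fell and 0 rose, with a mean level of 5.69 to 5.73, against 6.29 and 6.36. Leaving out indicaxanthin array 3, 6 of these 14 fell and 1 rose, and of the 9 intestinal genes 5 fell and 1 rose. Neither yolk (0 of 6) nor germ line genes (0 of 16) passed, with 0 in each at an unadjusted p under 0.05 in limma. The shared spread of these genes held indicaxanthin array 3, at averages of 10.09 and 7.35. Arrays 1 and 2 had 1.71 and 1.75 for yolk and 2.35 and 2.25 for germ line. That fit could therefore hardly call such genes, and does not show that they were unchanged. With indicaxanthin array 3 left out, 1 yolk gene rose, and 2 germ line genes rose and 1 fell, near or under the shares of all clusters. The part of these tissues in the member values was not tested.

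For each cluster, the authors' deposited tables hold an unadjusted p-value and a linear ratio, with treated animals on top. In the authors' deposited table for indoline-betacyanin the ratio was 0.207 for tni-4, 0.305 for myo-1, 0.351 for tnc-2, 0.48 for myo-2, 0.528 for tnt-4, 0.65 for myo-5 and 3.1 for pha-4. Unadjusted p-values in the authors' deposited table were 0.00179 for tni-4, 0.00211 for myo-1, 0.00256 for tnc-2, 0.0116 for myo-2, 0.0884 for tnt-4, 0.0115 for myo-5 and 0.0301 for pha-4. All 7 ratios in the authors' deposited table run the same way as the differences found here. This is not independent evidence, as that table is taken to rest on the same arrays plus a further control. In the authors' deposited table for phenylalanine-betaxanthin the ratio was 1.59 for tni-4 (p = 0.0599), 0.649 for myo-1 (p = 0.0573), 0.598 for tnt-4 (p = 0.0588) and 0.69 for pha-4 (p = 0.261), each p unadjusted and above 0.05. The authors' deposited table for indicaxanthin, which lists 3728 of the 29317 clusters, those with a p-value under 0.05, holds 0 of the 8 genes. Its sums of squares match 2 arrays per group, where 3 indicaxanthin arrays are analysed here.

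For indoline-betacyanin and phenylalanine-betaxanthin, the authors' deposited tables hold sums of squares that match 3 arrays per group, so they rest on a further control array that is not analysed here. Its log2 level can be worked out approximately from each ratio. By the authors' deposited tables for indoline-betacyanin and phenylalanine-betaxanthin, the yolk genes of that array averaged 10.09 or 10.22, as on the arrays of phenylalanine-betaxanthin and on indicaxanthin array 3. The implied level of tni-4 was 4.52 or 5.09, that of myo-1 4.62 or 4.36, that of tnc-2 3.51 or 4.0 and that of myo-2 3.20 or 2.76 by the authors' deposited tables. The lower of each pair of values lay above the highest indoline-betacyanin array for these 4 genes, though for myo-2 the gap to 2.36 was smaller than the difference between the tables. The share of all clusters that lay so was not worked out, and the yolk level of that array was unlike that of the indoline-betacyanin arrays. The implied level of tnt-4 was 4.07 or 4.21, above 3.55 to 3.96 on the indoline-betacyanin arrays, and that of myo-5 was 2.05 or 2.71, beside 1.58 to 2.09. For pha-4 the authors' deposited tables gave 4.94 or 5.25, lower than 6.11 and 6.35 on the control arrays and near 5.18 to 5.59 with phenylalanine-betaxanthin. The values of the 2 tables differed by 0.14 to 0.66 over the 8 genes. The gap was wider for some other genes, such as peb-1 at 2.98 or 4.52 by the authors' deposited tables. Error sums of squares rebuilt with that array correlated at 0.9755 and 0.9522 with those in the authors' deposited tables but did not equal them. Its values are therefore approximate, and their error is not known.

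Genes with the most similar profile were taken as the 2 tested protein-coding genes with the highest Pearson correlation over the 11 arrays, as a description. For tni-4 these were F32A5.3 (r = 0.989) and the intestinal peptide transporter gene pept-1 (r = 0.983), which averaged 2.23 with indoline-betacyanin, 5.66 with phenylalanine-betaxanthin, 5.05 with indicaxanthin and 4.92 on the controls. For myo-1 they were the proton pump subunit gene vha-11 (r = 0.969) and hpo-34 (r = 0.963), for tnc-2 Y110A2AL.9 (r = 0.98) and scav-6 (r = 0.978), and for tnt-4 C29F7.2 (r = 0.962) and F16C3.2 (r = 0.96). The profile of pha-4 was nearest to 2RSSE.1 (r = 0.979) and nipi-3 (r = 0.979), a Tribbles-like kinase gene, with nipi-3 at a mean of 9.23 with indoline-betacyanin, against 7.74 on the controls. For myo-2 they were acdh-9 (r = 0.948) and pgp-14 (r = 0.933), and for myo-5 crn-6 (r = 0.952) and kat-1 (r = 0.931). The low profile of ceh-22 was nearest to C35E7.7 (r = 0.919) and T24C2.3 (r = 0.906). The arrays share their groups and form separate sets by yolk level, so these values have no test. No other member of the 8 was among the nearest genes of any member.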

How the data were processed

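The authors deposited 1 log2 value per transcript cluster and array. The submitters' processing notes name RMA. RMA corrects background, applies quantile normalization and summarises probes. Biotin-labelled cDNA was made from 3.5 ng per sample with an Affymetrix whole-transcript kit, per the labels. Neither the array model nor the RMA version or genome build is stated by the sources at hand, so no coordinates are printed. The authors' deposited tables, per the file headers, hold an unadjusted p-value, a linear ratio and scores (sums of squares) per cluster. Cluster names came from the authors' deposited table for indoline-betacyanin, with commas read as dots: 27055 of 29317 had a name, and 26811 of these matched the RefSeq gene table.

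Differences were fitted with limma 3.58.1 in R 4.3.3 (lmFit and eBayes; all 11 arrays, 4 group means, no block; residual degrees of freedom 7, prior degrees of freedom 1.93). The 20291 named clusters with a mean above the 25th percentile, a log2 level of 1.523, were tested, with Benjamini-Hochberg adjustment per comparison at 0.05. There were 6 comparisons. The number of arrays limits the precision. The procedure was tested on simulated data. The members and gene lists were chosen with earlier results of these data known, and all 8 members are named. From each other list up to 4 genes with the smallest p-values are named. The body wall genes set beside a member were chosen by subunit. Alternatives were the trial block, other filters, quantile normalization, median centring, trended robust eBayes, array weights, only the groups compared, and leaving out each array.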

Additional observations from a re-analysis of the deposited data

How the results depend on the processing

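The calls of tni-4, myo-1 and tnc-2 as lower with indoline-betacyanin against control held in all 19 alternatives, with log2 differences of -2.59 to -2.14, -2.10 to -1.78 and -2.02 to -1.56. The call of tnt-4 held in 10 of the 19 (-1.59 to -0.86) and that of pha-4 in 15 (1.06 to 1.44). The number of members called in that comparison was 5, and 3 to 7 with single arrays left out. For phenylalanine-betaxanthin against control it was 3, against 0 with the trial number as a block, 1 (tni-4, higher) with arrays centred on their median, 5 with array weights, 5 with only the groups compared and 0 to 5 with single arrays left out. For indoline-betacyanin against indicaxanthin it was 6, against 2 with only the groups compared. For phenylalanine-betaxanthin against indicaxanthin it was 0, against 4 with array weights and 0 to 3 with single arrays left out, where 3 came without indicaxanthin array 3. The cause of these shifts was not tested.

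No pairing by trial number was seen: over 15 pairs of arrays with the same number, deviations from group means correlated at -0.29 to 0.101. Over 30 pairs with other numbers they correlated at -0.18 to 0.26. With 2 or 3 arrays per group such deviations depend on one another, so these values cannot show that trials shared nothing. With the trial number as a replicate block there were 4 calls among the members for indoline-betacyanin against control, and unchanged counts in the comparisons that hold no control and for indicaxanthin against control. The block's count over all clusters was 2927 against 3519 without the block for that comparison, and 3658 against 9041 for phenylalanine-betaxanthin against control. Over all alternatives, counts over all clusters ran from 1865 to 7459 and from 1156 to 12754 in those comparisons, from 212 to 2127 around 1258 (indicaxanthin against control), from 954 to 5646 around 2882 (indoline-betacyanin against indicaxanthin) and from 0 to 11307 around 0 (phenylalanine-betaxanthin against indicaxanthin).

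Signs turned only for differences that did not pass. Against control with phenylalanine-betaxanthin, myo-5 (-0.09) came to 0.11 after quantile normalization, 0.0631 after centring and -0.28 to 0.0315 with arrays left out. With indicaxanthin, myo-5 (-0.11) came to 0.085, 0.0332 and -0.28 to 0.048, pha-4 (-0.14) to 0.0089 after centring, 0.13 with array weights and -0.32 to 0.0393 with arrays left out, and tnt-4 (0.10) to -0.26 to 0.46. In the pair of betaxanthins myo-5 (0.02) ran from -0.17 to 0.19. Centring moved the median of all clusters by over 0.1 against control, to 0.18 from 0.02 with indoline-betacyanin, and the split there to 2387 higher and 1568 lower clusters from 1617 and 1902. With phenylalanine-betaxanthin that split became 5534 and 3385, from 4517 and 4524, and with indicaxanthin 181 and 979, from 64 and 1194.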
